A study of Mus musculus with 2 samples.

Results

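The 30 genes described here are standard markers of a dividing cell. The S phase set has 15 genes (Mcm2, Mcm3, Mcm4, Mcm5, Mcm6, Mcm7, Pcna, Rrm1, Rrm2, Tyms, Gins2, Cdc6, Uhrf1, Slbp and Hells) and the G2/M set has 15 (Mki67, Top2a, Cenpf, Cenpe, Birc5, Ube2c, Cdk1, Ccnb1, Ccnb2, Aurka, Aurkb, Tpx2, Bub1, Hmmr and Nusap1). They were taken by symbol from a list of known cell cycle genes, not by their values, and 30 of the 30 were found among the 19626 genes measured in 23528 cells. The tissue was the base of the mouse incisor around the cervical loop, epithelium and mesenchyme together, at postnatal day 20. One library was made from 1 mouse labelled Control, whose alleles are not stated further, and the other from 1 mouse labelled Memo1;K14CRE, in which Cre is driven by K14, a keratin promoter active in epithelial cells. K14 is not known to be active in the mesenchymal, endothelial and blood cells of the same library. The authors gave each cell a cluster number among all cells (0 to 28) and, for cells of the ameloblast lineage, a second number (0 to 8), with no cell type names.

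The incisor of a mouse grows throughout life. At its base, in the cervical loop, dividing epithelial progenitors give rise to preameloblasts, which leave the cell cycle, become ameloblasts and secrete enamel, while dividing mesenchymal cells supply pulp and odontoblasts. Origins of replication are licensed before S phase, when Cdc6 helps to load the MCM helicase. During S phase the fork is driven by MCM with Gins2, and Pcna holds the polymerase to DNA. Ribonucleotide reductase and thymidylate synthase supply the nucleotides. In G2 and mitosis, Cdk1 bound to cyclin B is switched on, chromosomes are condensed and held at kinetochores, the Aurora kinases and Tpx2 build the spindle, and Ube2c feeds the complex that destroys cyclin B at mitotic exit.

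Promoters of these genes are known for a few short motifs: E2F sites in S phase genes, and the cell cycle homology region (CHR), often with CCAAT boxes, in G2/M genes. Promoter sequences of 300 bases, from 250 before to 50 after the annotated start, were available from RefSeq (build GRCm38.p6) for 26 of the 30 genes, and none was found for Mcm4, Gins2, Aurkb and Tpx2. The E2F letters searched were TTTCCCGC, TTTGGCGC, TTTCGCGC and TTTGCCGC, the CHR letters were TTTGAA and TTCGAA, and all were searched on both strands together with CCAAT. E2F letters stood in the promoters of 7 of 13 S phase genes (Cdc6, Hells, Mcm3, Mcm5, Mcm6, Mcm7 and Uhrf1) and of 1 of 13 G2/M genes (Cdk1), against 2.26% of all 32851 promoters in the table. CHR letters stood in 9 of 13 G2/M promoters (Aurka, Bub1, Ccnb2, Cdk1, Cenpf, Hmmr, Mki67, Top2a and Ube2c) and 2 of 13 S phase promoters (Mcm2 and Mcm7), against 19.2% of all. CCAAT stood in 11 of 13 G2/M and 10 of 13 S phase promoters, against 37.4% of all. A match is a description of the letters and not evidence of binding. The 5 promoters below are shown because their genes lie on both sides of the S and G2/M contrast that runs through the results, and because Cdk1 carries letters of both kinds. Each is read 5′ to 3′ on the strand of its gene, from 250 bases before to 30 bases after the start, with E2F, CHR and CCAAT matches on either strand in capitals.
Mcm6, S phase, chr1:128359676-128359955, minus strand: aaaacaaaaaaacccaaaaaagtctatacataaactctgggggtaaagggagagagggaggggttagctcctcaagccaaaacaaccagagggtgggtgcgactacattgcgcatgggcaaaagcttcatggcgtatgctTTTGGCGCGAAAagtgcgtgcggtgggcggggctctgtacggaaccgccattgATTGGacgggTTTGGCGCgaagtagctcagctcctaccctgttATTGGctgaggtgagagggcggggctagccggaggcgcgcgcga
Mcm5, S phase, chr8:75109259-75109538, plus strand: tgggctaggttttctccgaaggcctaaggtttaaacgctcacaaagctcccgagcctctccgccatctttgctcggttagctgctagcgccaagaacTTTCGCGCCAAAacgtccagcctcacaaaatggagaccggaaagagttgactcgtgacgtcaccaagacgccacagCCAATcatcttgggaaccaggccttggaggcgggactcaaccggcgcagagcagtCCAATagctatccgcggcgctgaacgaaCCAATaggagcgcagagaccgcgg
Ccnb2, G2/M, chr9:70421525-70421804, minus strand: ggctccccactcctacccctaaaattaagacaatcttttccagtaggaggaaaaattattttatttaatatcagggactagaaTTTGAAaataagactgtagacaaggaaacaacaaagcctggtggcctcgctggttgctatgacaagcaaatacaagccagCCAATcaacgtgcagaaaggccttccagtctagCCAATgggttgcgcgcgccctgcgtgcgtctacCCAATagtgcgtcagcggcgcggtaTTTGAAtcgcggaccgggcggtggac
Cdk1, G2/M, chr10:69352883-69353162, minus strand: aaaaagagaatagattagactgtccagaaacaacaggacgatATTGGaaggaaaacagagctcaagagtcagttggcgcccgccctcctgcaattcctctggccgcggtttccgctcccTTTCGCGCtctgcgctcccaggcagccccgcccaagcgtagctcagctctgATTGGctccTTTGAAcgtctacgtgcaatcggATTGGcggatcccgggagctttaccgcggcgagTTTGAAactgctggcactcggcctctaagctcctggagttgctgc
Top2a, G2/M, chr11:99024160-99024439, minus strand: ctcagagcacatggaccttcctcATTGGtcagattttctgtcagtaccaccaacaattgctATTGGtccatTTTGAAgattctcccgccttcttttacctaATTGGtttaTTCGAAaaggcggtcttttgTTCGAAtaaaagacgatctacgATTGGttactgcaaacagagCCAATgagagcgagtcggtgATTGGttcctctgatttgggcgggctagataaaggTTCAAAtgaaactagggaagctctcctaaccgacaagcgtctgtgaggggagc
Mcm6 held 3 E2F matches (of which a pair overlaps) and 2 CCAAT matches in this stretch. Mcm5 held 2 E2F matches, which overlap each other, and 3 CCAAT matches. Ccnb2 held 2 CHR and 3 CCAAT matches, Top2a held 4 CHR and 6 CCAAT matches, and Cdk1 held 1 E2F, 2 CHR and 3 CCAAT matches.

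The Control library held 79518656 unique molecular identifier (UMI) counts in 9708 cells and the mutant library 120862385 in 13820 cells, with median counts per cell of 2643 and 6798. In 139 cases the same cell barcode was present in both libraries. Those barcodes were 1.43% of Control cells and 1.01% of mutant cells, had a median of 24105 counts in Control against 686 in the mutant, and carried the same all-cell cluster number in 17 of 139. They held 14.2% of the Control library's G2/M counts (4055 of 28619) and 4.15% of its S phase counts (1035 of 24964), so sums are given with and without them where they move. All levels are CPM, the counts of a gene or gene set in a cluster scaled to a common total of summed counts. Memo1 itself was at 20.3 CPM in lineage cells of Control and 17.7 CPM in those of the mutant; 3′ reads may lie outside the deleted part and then check nothing. The 95% intervals (exact Poisson for ratios, exact binomial for shares) cover counting error only. With 1 library per group no test of the difference between mice exists, and a gene is called past 2-fold only as a description of these 2 libraries, among genes with at least 20 counts over both. Fewer dividing cells and less RNA per dividing cell cannot be told apart in a summed level.

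Over all cells the S phase genes were at nearly the same summed level in both libraries, and the G2/M genes were lower in the mutant. The 15 S phase genes summed to 314 CPM in Control and 297 CPM in the mutant, a mutant to Control ratio of 0.947 (0.931 to 0.962). The 15 G2/M genes summed to 360 and 194 CPM, a ratio of 0.539 (0.530 to 0.549), or 0.597 without the shared barcodes. Of the S phase genes 6 lay above and 9 below a ratio of 1, and 0 were past 2-fold. Of the G2/M genes 15 of 15 lay below 1, and 4 were past 2-fold lower, where 3.15% of all measured genes were past 2-fold lower and 5.09% higher. These 4 were Ube2c, the ubiquitin-conjugating enzyme of mitotic exit (56.8 and 24.7 CPM), cyclin B1 (Ccnb1, 15.2 and 6.65 CPM), Aurora kinase A (Aurka, 8.17 and 3.72 CPM) and the spindle protein Nusap1 (20.8 and 10.1 CPM). The median log2 ratio was -0.11 for the S phase genes and -0.93 for the G2/M genes, beside 0.15 for all genes. The libraries also differed in cell makeup. The ameloblast lineage was 30.7% of Control and 16.7% of mutant cells, all-cell cluster 5 was 0.948% and 9.78%, and cluster 7 was 1.05% and 5.57%. The part of makeup in the all-cell ratios was not tested.

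All-cell cluster 11 held most of the G2/M counts. This cluster is led by these genes, so their level there describes how the cluster was made and is not a result. It had 469 cells in Control (4.83%, 4.41 to 5.28) and 276 in the mutant (2.00%, 1.77 to 2.24). It held 72.5% of the Control and 59.3% of the mutant G2/M counts, but 25.2% and 17.1% of the S phase counts. Outside it the S phase sum was 248 CPM in Control and 253 CPM in the mutant (ratio 1.02) and the G2/M sum 104 and 81.1 CPM (ratio 0.776, or 0.839 without shared barcodes).

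The share of a gene's counts that fell in cluster 11 differed within the S phase set. Cluster 11 held 4124331 of the 79518656 counts of all genes in Control and 2967484 of 120862385 in the mutant. The shares below are not scaled to that smaller part of the mutant library. A lower mutant share is therefore not a weaker hold of the gene to the cluster. Slbp, which binds histone mRNA, had 13.7% of its Control counts there and 8.78% of its mutant counts, and the sliding clamp gene Pcna had 15.8% and 10.6%. At the other end, the ribonucleotide reductase subunit Rrm2 had 57.4% and 52.2%, and Uhrf1, which keeps DNA methylation through replication, had 49.8% and 36.9%. Thus Slbp and Pcna were read mostly in cells outside the cluster, and Rrm2 mostly inside it in both libraries. The G2/M genes ran from Mki67, which coats mitotic chromosomes, at 60.9% and 45.2%, to the hyaluronan receptor and spindle gene Hmmr at 80.1% and 67.7%. Cdc6 was the gene of the 30 with a higher share in the mutant (28.2% in Control and 35.6% in the mutant).

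**Figure D1:**
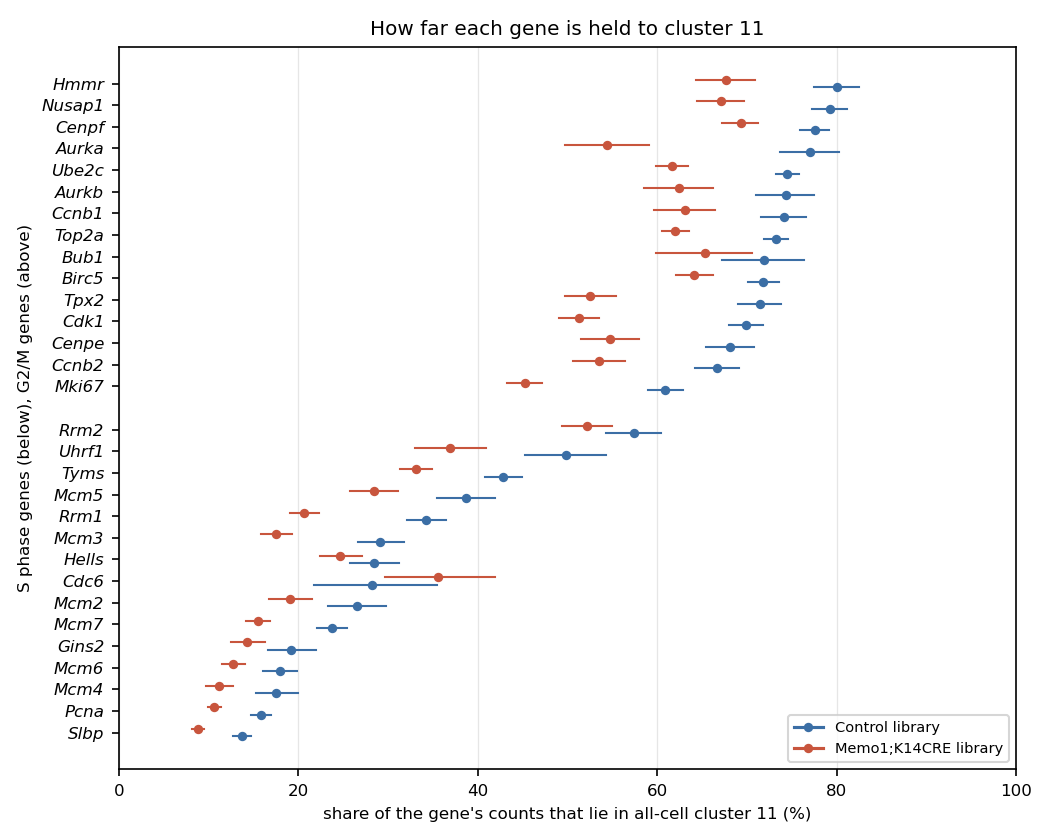
Percent of each gene's UMI counts that lie in all-cell cluster 11 (x axis), for the 15 S phase and 15 G2/M genes (y axis), with 1 point per library and 95% binomial intervals. G2/M genes sit to the right of most S phase genes, though Rrm2 (52.2%) lies right of Mki67 (45.2%) in the mutant, and mutant points sit left of Control points for every gene but Cdc6. Shares are not scaled to the size of the cluster, which had 4.83% of Control and 2.00% of mutant cells.

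Across clusters, the summed S phase level was highest in cluster 11 (1528 CPM in Control and 2070 in the mutant). Next came the neutrophil-like cluster 28, at 890 CPM over 24 Control cells and 784 CPM over 86 mutant cells, but 1 Control cell held 53.3% of its S phase counts there. Without the richest cell of each library its Control sums were 462 CPM for S phase and 930 CPM for G2/M genes, below those of cluster 15 (719 and 999 CPM). It was lowest in the erythroid-like cluster 18 (20.1 and 18.5 CPM), and the median over the 29 all-cell clusters was 259 and 254 CPM. The G2/M sum had a wider range: 5029 and 4687 CPM in cluster 11, 1408 and 758 CPM in cluster 28, a median of 90.7 and 51.1 CPM, and a lowest value of 8.39 CPM in Control (cluster 14, secretory ameloblast-like) and 9.80 CPM in the mutant (cluster 24, maturation ameloblast-like). Clusters high in 1 set were in the main high in the other (Pearson r = 0.63 over 68 points, 34 clusters in each library, as a description). The 34 were 26 all-cell and 8 ameloblast clusters, so cells of the lineage can enter under both numberings. Points also share a library and its depth. Exceptions lay on both sides. The erythroid-like cluster 18 had the lowest S phase sum but G2/M sums of 138 and 226 CPM, above the median. In cluster 22, led by the bone and dentine genes Bglap and Dmp1, the S phase sum was 505 and 422 CPM and the G2/M sum 93.1 and 111 CPM. It had 4 of 5 odontoblast markers, and odontoblasts, like secretory ameloblasts, were listed as non-dividing cells that should lack these genes. With each cell thinned to 1000 UMIs, 18 of 178 Control (10.1%) and 9 of 139 mutant cells (6.47%) had at least 2 S phase genes. At least 2 G2/M genes were found in 0 and 2 cells thinned, and in 25.8% and 25.2% unthinned.

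**Figure D2:**
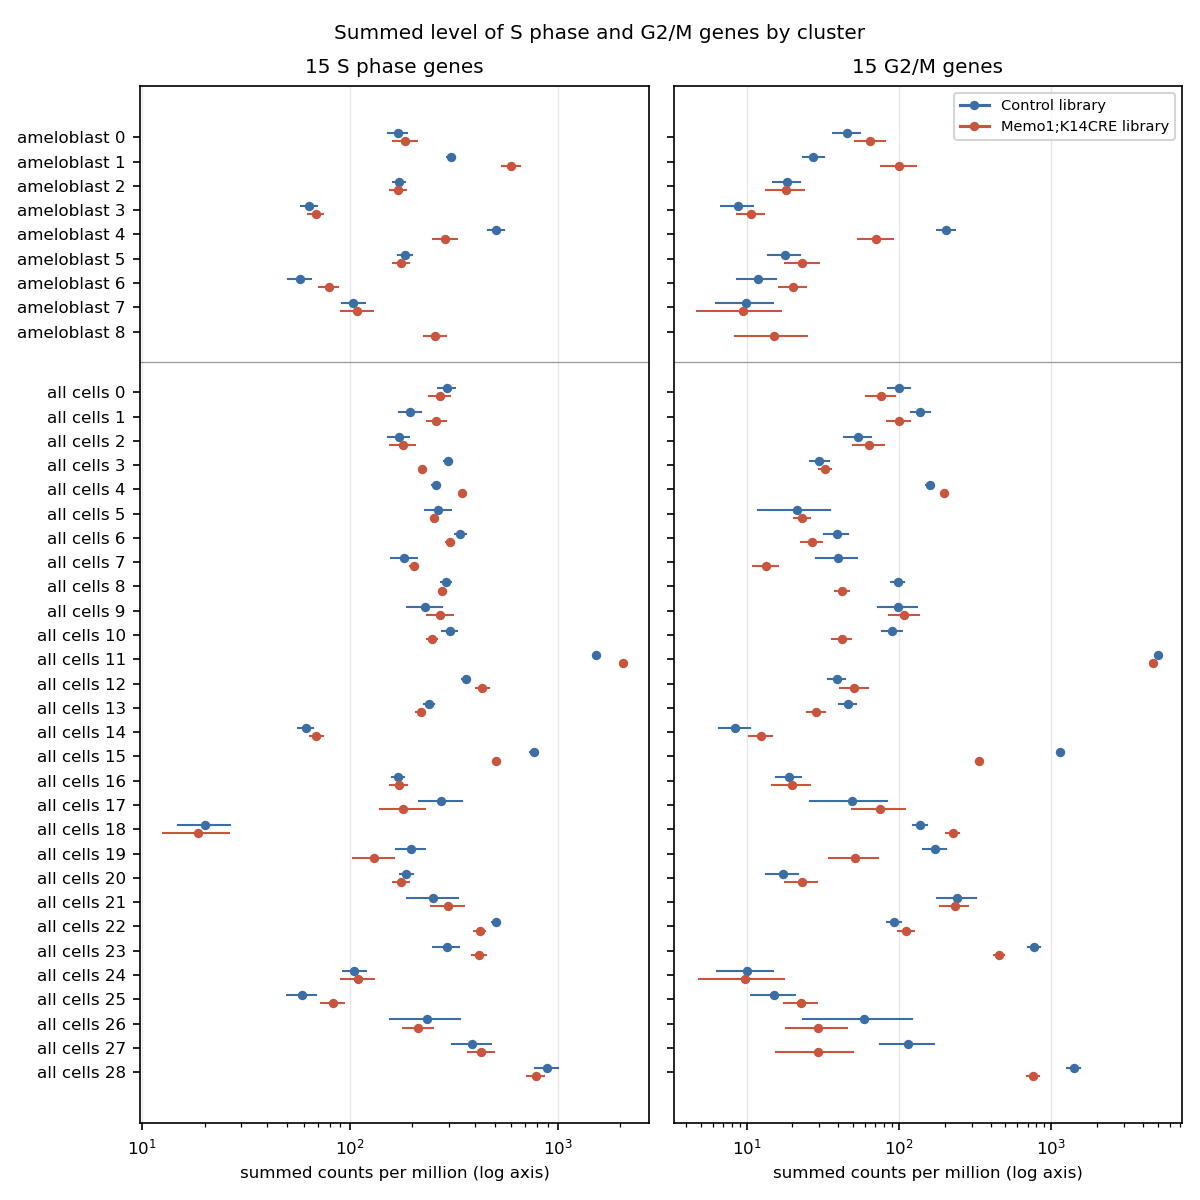
Summed CPM of the 15 S phase genes (left) and the 15 G2/M genes (right) on a log axis, for each cluster (y axis) and each library, with 95% Poisson counting intervals. All-cell cluster 11 lies farthest right in both panels, and the ameloblast clusters spread over a wider range for G2/M than for S phase genes.

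Of 26 all-cell clusters with at least 50 cells in each library, the S phase ratio had an interval above 1 in 7 and below 1 in 8, and ran from 0.654 to 1.44. The G2/M ratio had an interval above 1 in 5 and below 1 in 10, and ran from 0.291 to 1.64. The S phase sum was past 2-fold in 0 of these clusters and the G2/M sum was past 2-fold lower in 5. Of the 8 ameloblast clusters with such a ratio, the S phase interval lay above 1 in 2 and below in 1, and the G2/M interval above 1 in 3 and below in 1. The direction thus differed from cluster to cluster, and the clusters are described in turn.

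In the ameloblast lineage as a whole (2981 Control and 2303 mutant cells) the S phase genes were lower in the mutant and the G2/M genes were too few in counts to separate the libraries. The S phase sum was 164 CPM in Control and 130 CPM in the mutant (5288 and 3157 counts; ratio 0.796, 0.761 to 0.832). The ratio was 0.805 without the shared barcodes. Of the 15 genes 14 lay below 1, and 1 was past 2-fold lower, where 4.08% of all measured genes in the lineage were past 2-fold lower and 4.6% higher. The median log2 ratio was -0.48 for S phase genes, -0.20 for G2/M genes and -0.03 for all genes. The G2/M sum was 24.0 and 21.96 CPM (775 and 532 counts; ratio 0.915, 0.818 to 1.02).

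The helicase and fork genes were lower as groups. The 6 MCM genes summed to 47.1 CPM in Control and 34.7 CPM in the mutant (ratio 0.736, 0.676 to 0.801). Among them Mcm6 was at 9.29 and 6.07 CPM, Mcm7 at 20.4 and 16.3 CPM, Mcm4 at 5.70 and 3.92 CPM, Mcm2 at 4.02 and 2.68 CPM, Mcm5 at 4.06 and 2.68 CPM and Mcm3 at 3.65 and 3.05 CPM. Each subunit of the ring was lower in the mutant library, and for Mcm3 the interval reached past 1 (0.616 to 1.13). Pcna, which tethers the polymerase, was at 31.8 and 22.8 CPM (ratio 0.716, 0.644 to 0.795). Gins2, a subunit of the helicase's GINS partner, was at 5.88 and 5.16 CPM, and the licensing factor Cdc6 at 1.11 and 0.784 CPM, with intervals that include 1.

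The nucleotide genes did not move as 1 group. Rrm1, the large subunit of ribonucleotide reductase, was at 13.2 CPM in Control and 8.67 CPM in the mutant (ratio 0.657, 0.554 to 0.777), and thymidylate synthase (Tyms) at 12.8 and 9.49 CPM. Rrm2, the small subunit and the one made chiefly in S phase, was at 2.60 and 3.80 CPM (84 and 92 counts; ratio 1.46, 1.07 to 1.99). Rrm2 was thus the S phase gene on the other side of 1 in the lineage. Of the chromatin and histone genes, Uhrf1 was at 2.91 and 1.44 CPM (94 and 35 counts; ratio 0.496, 0.327 to 0.739) and was the gene past 2-fold. Slbp was at 35.0 and 33.3 CPM and Hells, a chromatin remodeller, at 11.3 and 10.2 CPM, both with intervals that include 1.

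Of the 15 G2/M genes, 13 had enough counts in the lineage, 6 of them above and 7 below a ratio of 1. The chromosome structure pair Mki67 (2.97 and 2.10 CPM) and Top2a, the topoisomerase that untangles sister chromatids (3.34 and 2.77 CPM), were lower in the mutant, with a joint ratio of 0.771. The 5 kinetochore and passenger genes summed to 7.93 and 6.23 CPM (ratio 0.786, 0.639 to 0.965), with the centromere protein gene Cenpf at 3.22 and 2.81 CPM, the kinesin gene Cenpe at 1.61 and 1.20 CPM and survivin (Birc5) at 2.66 and 1.94 CPM. Aurkb, the kinase of the passenger complex (8 and 6 counts), and the checkpoint kinase Bub1 (6 and 1 counts) had too few counts for a ratio. The cyclin B kinase group lay near 1: Ube2c was at 2.97 and 3.30 CPM, Cdk1 at 1.64 and 2.02 CPM, Ccnb2 at 1.11 and 1.53 CPM and Ccnb1 at 1.02 and 0.578 CPM. So did the spindle group, with Tpx2 at 1.33 and 1.61 CPM, Nusap1 at 0.743 and 0.825 CPM and Aurka at 0.681 and 0.454 CPM. Hmmr was past 2-fold higher on 8 and 13 counts, with an interval of 0.832 to 6.03.

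Cell type makeup differed between the 2 lineage samples. The summed maturation ameloblast markers were 2697 CPM in Control and 267 CPM in the mutant, the outer enamel epithelium and stellate reticulum markers 1405 and 602 CPM, the secretory markers 165570 and 232790 CPM and the dental mesenchyme markers 238 and 419 CPM. Their part in the lineage ratios was not tested.

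Few lineage cells carried these transcripts together. With every cell thinned to 1000 UMIs, at least 2 different S phase genes were found in 42 of 2349 Control cells (1.79%) and 23 of 1584 mutant cells (1.45%), and at least 2 G2/M genes in 6 (0.255%) and 3 (0.189%). Cells under that depth, 632 in Control and 719 in the mutant, were left out. Without thinning the shares were 33.9% and 27.5% for S phase and 2.58% and 2.21% for G2/M genes. The secretory ameloblast-like cluster 3, whose cells no longer divide, had 1 of 223 and 1 of 286 thinned cells with 2 S phase genes and 0 with 2 G2/M genes (0 allows a share of up to 1.35% and 1.05%). Its unthinned shares were 57.4% and 54.5% for S phase and 2.69% and 2.80% for G2/M genes at median depths of 35309 and 32700 UMIs. That background was read in far deeper cells than those of the lineage, so the unthinned shares cannot be compared; at equal depth cluster 3 had 0.448% and 0.350% of cells with 2 S phase genes. Cells with 5 or more different G2/M genes numbered 8 of 2981 in Control and 5 of 2303 in the mutant lineage, beside 229 of 469 and 146 of 276 in cluster 11. The cells with the strongest G2/M signal are therefore in cluster 11, which has no lineage number.

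Other genes of the same processes in the lineage, from 9 lists of 132 genes, were past 2-fold in few cases. None of 14 licensing genes, 10 nucleotide genes, 13 kinetochore genes or 13 kinesin genes with enough counts was past 2-fold. Of 25 polymerase and fork genes 1 was higher, the leading-strand polymerase gene Pole (1.36 and 5.03 CPM), and 1 lower, the polymerase delta gene Pold1 (3.99 and 1.40 CPM). Of 7 genes of CDK inhibitors 1 was higher (Cdkn2a, 1.98 and 8.05 CPM) and 1 lower (Cdkn1c, 72.6 and 21.9 CPM), while Cdkn1a, the p21 gene, was at 281 and 542 CPM. Of 18 genes of the G1 to S step 1 was higher (E2f2, ratio 2.44), of 9 G2 regulators 1 was lower (Ccnf, ratio 0.296) and of 12 anaphase genes 1 was higher (Espl1, ratio 3.62). Cyclin D3 (Ccnd3) was at 34.0 and 19.1 CPM.

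Ameloblast cluster 4 had the highest S phase and G2/M sums of the Control lineage clusters, and both were lower in the mutant. It held 227 Control and 223 mutant cells with median depths of 1996 and 1028 UMIs. It had 5 of 6 preameloblast markers, with Vwde and Col22a1 among its 10 leading genes, but 4 haemoglobin genes were also among the 10, so it is left unnamed. The summed erythroid markers were 261 CPM in Control and 19891 CPM in the mutant. The S phase sum was 507 and 287 CPM (529 and 230 counts; ratio 0.566, 0.483 to 0.662), and 0.659 without the shared barcodes. The G2/M sum was 205 and 71.0 CPM (214 and 57 counts; ratio 0.347, 0.254 to 0.466), and 0.351 without them. In 1 mutant cell, and in 0 Control cells, haemoglobin was over 10% of the counts; without it the ratios were 0.603 for S phase and 0.285 for G2/M genes, so both were below 1 with and without that cell.

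Of the 14 S phase genes with enough counts in cluster 4, 14 lay below 1 and 5 were past 2-fold lower, where 4.65% of all measured genes there were past 2-fold lower and 2.44% higher. These were Mcm3 (36.4 and 14.96 CPM), Mcm5 (39.3 and 16.2 CPM), Rrm1 (27.8 and 12.5 CPM), Rrm2 (20.1 and 7.48 CPM) and Uhrf1 (28.7 and 6.23 CPM). Rrm2, higher in the mutant lineage as a whole, was thus lower in this cluster. Mcm7 (54.6 and 47.4 CPM), Pcna (58.4 and 47.4 CPM) and Mcm2 (18.2 and 14.96 CPM) were the nearest to 1. The nucleotide genes had a joint ratio of 0.476, the chromatin genes 0.447, the MCM genes 0.606 and the fork genes 0.711.

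Among the G2/M genes the kinetochore and chromosome genes had few counts in the mutant cells of cluster 4. Of 5 genes with enough counts 4 were past 2-fold lower. Mki67 had 38 counts in 17 Control cells and 2 counts in 2 mutant cells (36.4 and 2.49 CPM), and Cenpf had 45 counts in 15 cells and 1 count in 1 cell (43.1 and 1.25 CPM). Birc5 had 26 and 3 counts and Ccnb2, a cyclin B, had 22 and 6. Ube2c was the exception, with 24 counts in each library (23.0 and 29.9 CPM), but 12 of the 24 mutant counts lay in the 1 haemoglobin-rich cell. By group, the kinetochore genes had 88 and 6 counts (ratio 0.0887) and the chromosome structure pair was at 49.8 and 8.73 CPM (ratio 0.175), while the cyclin B kinase group had a ratio of 0.777 (0.502 to 1.19).

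A few cells carried much of the cluster 4 signal. The 17 Control and 9 mutant cells of it that lie in all-cell cluster 12 held 379 of 529 (71.6%) and 148 of 230 (64.3%) of the S phase counts, and 80 of 214 (37.4%) and 14 of 57 of the G2/M counts. These cells had the dental epithelium genes Epcam (1053 and 564 CPM) and Shh (969 and 1122 CPM), and 5 cells of each library held 50% of all S phase counts of the cluster. In the other cells of cluster 4 the S phase sum was 198 and 126 CPM (ratio 0.634, 0.479 to 0.836) and the G2/M sum 177 and 66.0 CPM (ratio 0.372, 0.258 to 0.529). Thinned to 1000 UMIs, 11 of 165 Control cells (6.67%) and 3 of 115 mutant cells (2.61%) had at least 2 S phase genes, and 6 of 165 (3.64%) and 0 of 115 had at least 2 G2/M genes, where 0 allows a share of up to 2.61%. Unthinned, the shares were 20.3% and 9.87% for S phase and 9.25% and 4.04% for G2/M genes, and 62 and 108 cells were too shallow to be thinned. All-cell cluster 19, which is preameloblast-like, had G2/M sums of 171 and 51.2 CPM (ratio 0.299) and S phase sums of 197 and 131 CPM. It held 213 Control and 213 mutant cells, close to the 210 and 214 cells of ameloblast cluster 4 outside cluster 12. Its G2/M counts (133 and 31) were also close to theirs (134 and 43). The cells may be largely the same, so cluster 19 is not a second observation.

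In other cell cycle lists of cluster 4, 3 of 4 kinetochore genes with enough counts were past 2-fold lower, among them the centromeric histone gene Cenpa (50.8 and 14.96 CPM). Of 7 licensing genes 1 was lower, geminin (Gmnn, 35.4 and 9.97 CPM), which blocks re-licensing. Of 17 polymerase and fork genes 2 were lower and 1 higher.

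Ameloblast cluster 1 went the other way, on few mutant cells. It had 5 of 5 outer enamel epithelium and stellate reticulum markers and is called outer enamel epithelium-like, with 495 Control and 75 mutant cells. The S phase sum was 307 CPM in Control and 598 CPM in the mutant (1794 and 364 counts; ratio 1.95, 1.73 to 2.18) and the G2/M sum 27.4 and 100 CPM (160 and 61 counts; ratio 3.66, 2.68 to 4.94). Of 14 S phase genes 13 lay above 1 and 6 were past 2-fold higher, where 6.21% of all measured genes there were past 2-fold higher and 8.89% lower. They were Mcm2 (7.20 and 29.6 CPM), Mcm3 (7.88 and 42.7 CPM), Mcm5 (7.20 and 23.0 CPM), Mcm6 (21.6 and 60.8 CPM), Rrm2 (3.26 and 13.1 CPM) and Hells (7.20 and 67.4 CPM, with 14 of the 41 mutant counts in 1 cell). Of 7 G2/M genes with enough counts 4 were past 2-fold higher (Mki67, Cenpf, Cenpe and Cdk1) and 1 lower (Birc5, 20 and 1 counts).

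Much of the mutant S phase sum of cluster 1 lay in 4 cells. These 4 of 75 mutant cells held 50% of its mutant S phase counts, against 100 of 495 cells in Control. Without the 4 richest cells of each library the S phase sum was 290 and 322 CPM (ratio 1.11, 0.941 to 1.30), and the G2/M sum was 24.6 and 87.1 CPM (ratio 3.54). The cells left out were chosen on their S phase counts and were a larger part of the mutant cells, which by itself lowers the S phase ratio. The G2/M counts also lay in few mutant cells: 4 cells held 50% of them in the mutant and 30 in Control, and 3 and 36 after those cells, chosen on S phase genes, were left out. Cell shares did not follow the S phase sum. At least 2 S phase genes were found in 68.7% of Control and 44.0% of mutant cells unthinned, and in 16 of 479 (3.34%) and 2 of 65 (3.08%) thinned. At least 1 Pcna count was found in 47.3% and 33.3% of cells, and 1 Slbp count in 50.7% and 40.0%. At least 2 G2/M genes were found in 3.43% and 13.3% of cells unthinned, and in 0 of 479 (which allows a share of up to 0.626%) and 1 of 65 thinned. Ameloblast cluster 8, present in the mutant only with 91 cells, has 3 of the same 5 markers. Clusters 1 and 8 together gave S phase sums of 307 and 387 CPM (ratio 1.26) and G2/M sums of 27.4 and 47.5 CPM (ratio 1.73). The marker sum that names cluster 1 was 3799 CPM in Control and 1563 CPM in the mutant, and dental mesenchyme markers were at 314 and 624 CPM; their part in the ratios was not tested.

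The other lineage clusters had lower S phase sums in Control than clusters 4 and 1. Ameloblast cluster 0 had G2/M sums of 45.7 and 65.1 CPM (94 and 81 counts; ratio 1.42, 1.05 to 1.94), in Control above those of cluster 1. In the secretory ameloblast-like cluster 3 the S phase sum was 63.7 and 68.4 CPM and the G2/M sum 8.72 and 10.7 CPM, with intervals of the ratio that include 1. Cluster 6, with 4 of 6 preameloblast markers, had S phase sums of 57.3 and 79.2 CPM (ratio 1.38) and G2/M sums of 11.8 and 20.05 CPM (ratio 1.70). In it Rrm2 had 5 Control and 31 mutant counts, Cenpf 4 and 21 counts and Ccnb2 2 and 14 counts. The remaining S phase sums lay between 104 and 184 CPM in Control and between 108 and 185 CPM in the mutant, outside cluster 8 (258 CPM).

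Inside all-cell cluster 11 the S phase genes were higher in the mutant, and the cyclin B kinase and spindle groups were lower. Thinned to 1 depth, the ratios of the S phase and G2/M sums lay near 1. Summed S phase genes were at 1528 and 2070 CPM (ratio 1.35, 1.31 to 1.40), or 1.29 without the shared barcodes and 1.06 with each cell thinned to 1000 UMIs. Summed G2/M genes were at 5029 and 4687 CPM (ratio 0.932, 0.912 to 0.952), or 0.983 and 1.07. Of the S phase genes 15 of 15 lay above 1 and 1 was past 2-fold higher, where 7.69% of all measured genes of the cluster were past 2-fold higher and 2.49% lower. It was Cdc6, the licensing factor, with 12.1 and 29.99 CPM (ratio 2.47, 1.73 to 3.57). The fork genes had a joint ratio of 1.56, the chromatin and histone genes 1.40, the MCM genes 1.30 and the nucleotide genes 1.29. Pcna was at 167 and 248 CPM, Rrm2 at 143 and 223 CPM and Tyms at 238 and 307 CPM.

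Within the G2/M set of cluster 11, 4 genes lay above 1 and 11 below. The chromosome structure pair had a ratio of 1.12, with Mki67 at 356 and 392 CPM and Top2a at 764 and 857 CPM. The kinetochore group was at 1366 and 1335 CPM (ratio 0.977). The cyclin B kinase group was at 1670 and 1344 CPM (ratio 0.805, 0.774 to 0.837) and the spindle group at 874 and 760 CPM (ratio 0.869). In these last groups Ube2c was at 816 and 620 CPM, Ccnb1 at 217 and 171 CPM and Aurka at 121 and 82.6 CPM. The group ratios thus ran from 1.56 for the fork genes to 0.805 for the cyclin B kinase group. Of the other lists, the G1 to S list had 17 of 19 genes above 1 and 4 past 2-fold higher, among them cyclin E1 (Ccne1, 10.9 and 31.0 CPM) and cyclin E2 (Ccne2, 35.9 and 81.2 CPM). Its median log2 ratio was 0.55, beside 0.17 for origin licensing genes and 0.09 for all genes. The mitotic lists did not stand to 1 side: 7 of 16 kinetochore genes, 7 of 16 kinesin genes, 6 of 10 G2 regulators and 10 of 13 anaphase genes lay above 1. Cdc20, the activator of mitotic exit in the anaphase list, was at 336 and 235 CPM, and Kntc1, of the kinetochore list, had a ratio of 2.13.

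Cell type makeup and depth of cluster 11 differed between the libraries too. Of its cells 71 of 469 (15.1%) in Control and 28 of 276 (10.1%) in the mutant had at least 2 different dental epithelium markers and more counts of them than of dental mesenchyme markers, and 223 (47.5%) and 186 (67.4%) had the reverse. Dental mesenchyme markers summed to 4035 and 8378 CPM, pericyte markers to 358 and 1878 CPM, dental epithelium markers to 1064 and 528 CPM and erythroid markers to 212 and 11398 CPM. In 1 Control and 6 mutant cells haemoglobin was over 10% of the counts, and without them the ratios were 1.37 for S phase and 0.904 for G2/M genes. Median depths were 1548 and 2176 UMIs. In the mesenchymal-marker cells alone the S phase sum was 1440 and 2123 CPM (ratio 1.47) and the G2/M sum 5100 and 4575 CPM (ratio 0.897). In the epithelial-marker cells, with 28 mutant cells too few for a ratio, the S phase sum was 1639 and 1907 CPM and the G2/M sum 5160 and 4954 CPM.

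Cells of cluster 11 were also sorted by both sets, after thinning to 1000 UMIs. At least 2 S phase genes and fewer than 2 G2/M genes were found in 53 of 326 Control cells (16.3%) and 28 of 196 mutant cells (14.3%), and the reverse in 161 (49.4%) and 89 (45.4%). Both were found in 79 (24.2%) and 54 (27.6%), and neither in 33 (10.1%) and 25 (12.8%). In each class the intervals of the libraries overlap. Too shallow to be thinned were 143 Control and 80 mutant cells.

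**Figure D3:**
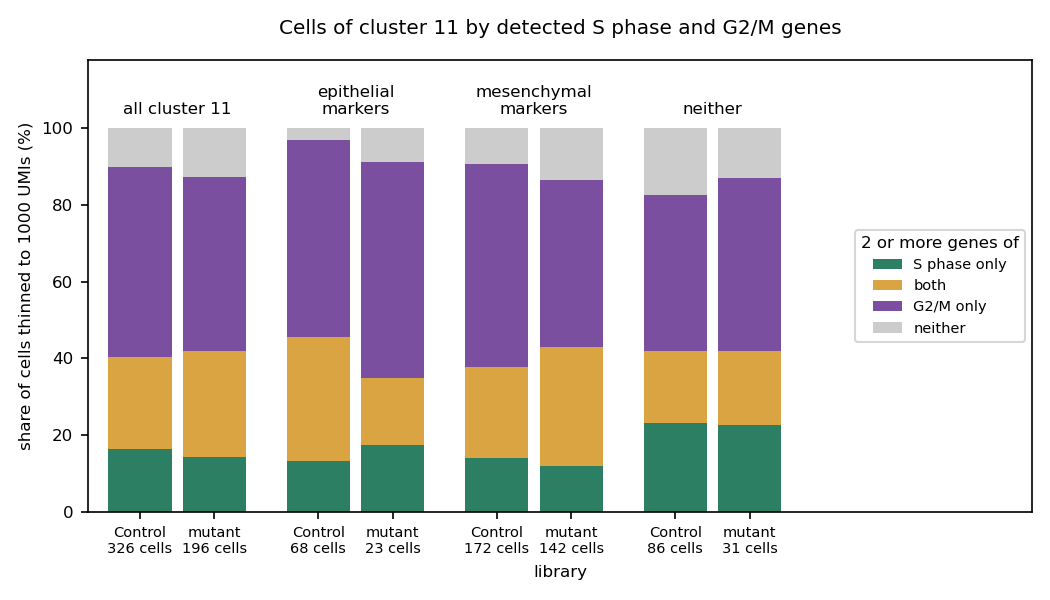
Percent of cluster 11 cells (y axis) with at least 2 S phase genes only, both, at least 2 G2/M genes only, or neither, after thinning to 1000 UMIs, for all its cells and for cells with epithelial, mesenchymal or neither marker set, by library. For all cells, G2/M only is the most frequent class in both libraries (49.4% and 45.4%).

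When the epithelial-marker cells of cluster 11 were counted with the lineage, they were a smaller share of the mutant than of the Control set. They were 71 of 3052 cells (2.33%, 1.82 to 2.93) in Control and 28 of 2331 (1.20%, 0.7996 to 1.73) in the mutant, and 2.81% and 1.43% among cells of at least 1000 UMIs. By the same marker rule 5 of 1265 Control and 9 of 4535 mutant cells in all-cell clusters 3, 5, 6, 7 and 13 would be called epithelial. These clusters were taken as mesenchyme, and of them 7 and 13 were called dental mesenchyme-like. The rule called 81.3% of Control but 71.6% of mutant lineage cells epithelial, and 4.23% and 10.6% of them mesenchymal; the part of this gap in the difference was not tested. The G2/M sum of this enlarged lineage was 215 CPM in Control and 119 CPM in the mutant (ratio 0.557, 0.533 to 0.581), beside 0.915 for the lineage alone. The ratio was 0.594 without the shared barcodes and 0.516 without the richest cell of each library. In this set 11 Control and 6 mutant cells held 50% of the G2/M counts, a spread that the counting interval does not cover. For S phase genes the sum was 218 and 165 CPM (ratio 0.757). Adding 71 and 28 cells thus moved the G2/M ratio and left the S phase ratio near its lineage value. Of the G2/M genes Aurka had a ratio of 0.367, Nusap1 0.430, Ube2c 0.480 and Mki67 0.725 in this set.

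Outside the epithelium, the G2/M ratio was below 1 in several all-cell clusters. It was 0.339 and 0.620 in the dental mesenchyme-like clusters 7 and 13, and 0.466 in the pericyte or smooth muscle-like cluster 10, with intervals below 1. In clusters 7, 13 and 10, 50% of the Control counts lay in 4, 4 and 3 cells. The interval lay above 1 in clusters 4, 18 and 22 (ratios 1.24, 1.64 and 1.20). The lowest ratio was that of all-cell cluster 15, with 168 Control and 451 mutant cells. It had 5 of 5 endothelial markers and is called endothelium-like. Its G2/M genes summed to 1148 CPM in Control and 334 CPM in the mutant (ratio 0.291, 0.274 to 0.308), 0.328 without the shared barcodes and 0.298 without the richest cell of each library. All 15 of 15 G2/M genes were past 2-fold lower, where 3.37% of all measured genes of the cluster were past 2-fold lower and 3.72% higher. But 6 Control and 6 mutant cells held 50% of the G2/M counts, so the 15 genes are not separate observations. Their ratios ran from 0.216 for Ube2c (146 and 31.6 CPM) to 0.402 for Cdk1 (111 and 44.5 CPM), with Top2a at 190 and 62.5 CPM, Birc5 at 141 and 35.7 CPM and Mki67 at 90.5 and 28.96 CPM. Its S phase genes summed to 771 and 506 CPM (ratio 0.656, 0.619 to 0.695), with 15 genes below 1 and 2 past 2-fold lower, Rrm2 (49.5 and 18.4 CPM) and Tyms (100 and 46.0 CPM).

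The share of cycling cells in cluster 15 differed in the same direction as its sum. At least 5 different G2/M genes were found in 25 of 168 Control cells (14.9%) and 22 of 451 mutant cells (4.88%). Thinned to 1000 UMIs, at least 2 G2/M genes were found in 20 of 167 (11.98%) and 13 of 451 (2.88%) cells. Of these cells 13 and 4 also had at least 2 S phase genes, whereas S phase genes only were found in 3 Control and 25 mutant cells. Other lists followed: 15 of 16 kinesin genes, 13 of 16 kinetochore genes and 8 of 13 anaphase genes with enough counts were past 2-fold lower. These lists were read in the same cells of the cluster and are not separate observations. The summed endothelial markers were 4103 and 3910 CPM.

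**Figure D4:**
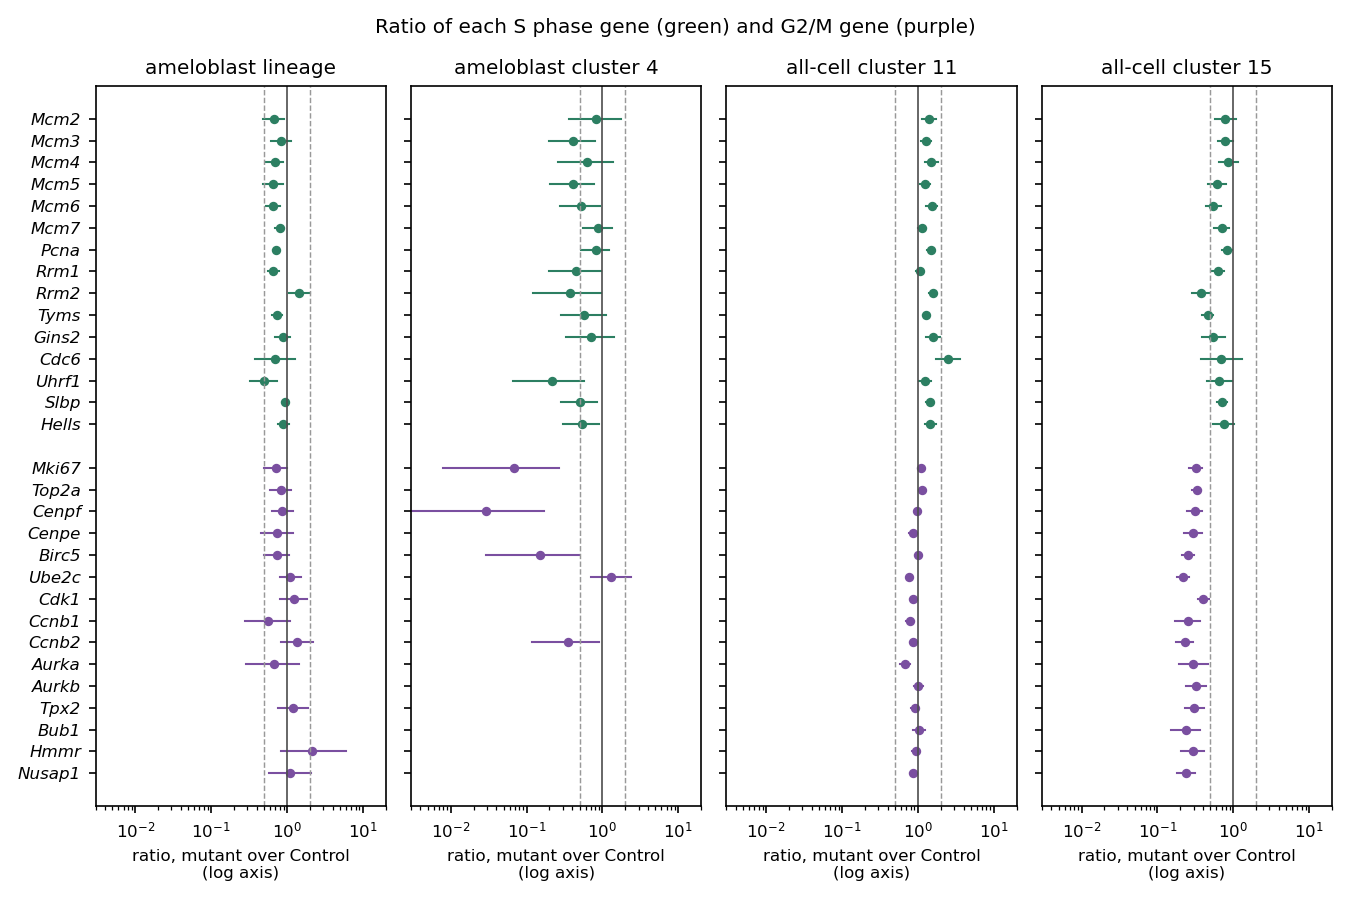
Mutant to Control ratio of each gene (log x axis) with its 95% counting interval, in the ameloblast lineage, ameloblast cluster 4 and all-cell clusters 11 and 15, for genes with at least 20 counts over both libraries; dashed lines mark 2-fold. The Cenpf interval of ameloblast cluster 4 runs past the left edge. In cluster 15 the 15 G2/M genes lie left of the lower dashed line, and in cluster 11 the 15 S phase genes lie right of 1.

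In the macrophage-like all-cell cluster 4 (491 and 987 cells) the sums of both sets were higher in the mutant. S phase genes summed to 259 and 347 CPM (ratio 1.34), with 14 of 15 genes above 1 and 3 past 2-fold higher, where 4.36% of all measured genes were past 2-fold higher and 1.69% lower. These were Mcm6 (9.99 and 24.4 CPM), Rrm2 (1.76 and 4.62 CPM) and Uhrf1 (1.08 and 5.76 CPM). G2/M genes summed to 159 and 197 CPM (ratio 1.24), with 13 of 15 genes above 1 and Ccnb1 past 2-fold (2.97 and 6.23 CPM). Cdc6 was the S phase gene below 1, at 4.32 and 3.15 CPM. At least 2 G2/M genes were found in 17.7% of Control and 14.7% of mutant cells unthinned, and in 1.02% and 1.62% thinned. For S phase genes the shares were 75.2% and 76.9% unthinned, and 2.04% and 3.85% thinned. The G2/M counts lay in few cells, with 50% of them in 6 Control and 9 mutant cells. The most counts in 1 mutant cell were 13 for Rrm2, 21 for Mcm6 and 23 for Ccnb1. All-cell cluster 1 (1253 and 1182 cells) also had 6 of 6 macrophage or monocyte markers, at median depths of 866 and 846 UMIs. Its G2/M sum was lower in the mutant, at 139 and 99.9 CPM (ratio 0.721, 0.575 to 0.902). Its S phase sum was higher, at 195 and 261 CPM (ratio 1.33, 1.14 to 1.57).

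Single cells moved the G2/M ratio of some other clusters. In the endothelium-like cluster 8 the G2/M sum was 98.2 and 42.2 CPM (ratio 0.430), but 1 Control cell held 42.7% of its Control counts. The ratio was 0.731 (0.612 to 0.875) without the shared barcodes and 0.658 (0.552 to 0.786) without the richest cell of each library. It stayed below 1 in both cases. In cluster 23, whose leading genes went against its markers and which is unnamed, the ratio was 0.589 (774 and 456 CPM), 1 Control cell held 58.3% of the counts and the ratio was 1.32 without the shared barcodes. Without the richest cell of each library it was 0.974 (0.828 to 1.15). The G2/M ratio of cluster 23 thus depends on single cells.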

How the data were processed

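Single-cell RNA was counted in 2 libraries (1 Control and 1 Memo1;K14CRE mouse). The deposited values are whole-number UMI counts per gene and cell, made by the authors with Cell Ranger (version not given in the sources used here) on mm10 and Seurat 3, per the submitters' processing notes, together with the authors' cluster numbers. UMIs per deposited cell ran from 501 to 49967 and mitochondrial counts reached 30.0%, with no cell under 200 genes. No doublets were called here. How the lineage cells were chosen is not given in the sources used here.

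For each cluster and library the counts of all cells were added up, and a gene's sum was divided by that of all genes. Ratios are mutant over Control with exact conditional 95% intervals of a pair of Poisson counts, and shares have Clopper-Pearson intervals; the script was tested on simulated data. UMIs remove PCR copies, and intervals cover counting error only. A count of 0 was read as up to 3. A ratio of sums needed 50 cells in each library, and a gene needed 20 counts over both. Clusters were called "like" a cell type when at least 3 markers were 1.5-fold above the other clusters at a mean log2 fold of at least 1. A cell of cluster 11 was called epithelial or mesenchymal by at least 2 different markers of that kind. For single cells each cell was thinned to 1000 UMIs.

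All 30 genes could be named. From 9 other cell cycle lists, up to 4 genes per list were named in the lineage and in clusters 11 and 4, those whose interval lay farthest from 1; counts of other clusters name none. Of the genes most like each set, the 8 with the highest Pearson r of log2(CPM + 10) were taken; 1 of them is not reported here. The members and lists were chosen with earlier results of these data known. Alternatives were TMM factors (edgeR 4.0.16), DESeq2 1.42.0 size factors, other cell limits, thinning and other minimums; those that leave out shared barcodes, single cells or clusters, or haemoglobin-rich cells, or that add or split cells of cluster 11 or 8, were chosen after the data were seen. Python 3.11.15, numpy 2.4.6, scipy 1.17.1, pandas 2.3.3, matplotlib 3.10.9 and R 4.3.3 were used. No p-values were computed, since each group has 1 library.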

Additional observations from a re-analysis of the deposited data

Results flagged for a closer look

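The clusters farthest from 1 in each direction are listed because their mutant to Control ratios pointed opposite ways; the difference between clusters was not tested. For the S phase sum the ratio was 1.95 in ameloblast cluster 1 and 0.566 in ameloblast cluster 4, and 1.44 in all-cell cluster 23 and 0.654 in all-cell cluster 17. For the G2/M sum it was 3.66 in ameloblast cluster 1 and 0.347 in ameloblast cluster 4, and 1.64 in the erythroid-like all-cell cluster 18 and 0.291 in the endothelium-like all-cell cluster 15. Ameloblast cluster 1 had 75 mutant cells, and 4 of them held 50% of its S phase counts.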

How the results depend on the processing

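Of 113 recomputed summed ratios, counts and shares, 64 moved by less than their interval or by less than 1.5 times and 49 moved further; 56 recomputed ratios of single genes stayed within their interval. TMM factors shifted all ratios by -0.15 (log2) over all cells and by -0.11 in cluster 11. The all-cell S phase ratio (0.947) was 0.856 with TMM and 0.855 with DESeq2 factors, 0.908 with totals without the 20 most abundant genes, 0.921 with stricter cell limits (at least 1000 UMIs and 500 genes, at most 10% mitochondrial counts), 0.926 without the 5% deepest cells, 0.902 thinned, 0.930 as a mean over cells, 0.925 as the median of genes and 1.02 without cluster 11, where its direction turned. The all-cell G2/M ratio (0.539) was 0.488, 0.487, 0.517, 0.508 and 0.632 under the first 5 of these, 0.557 as a mean over cells, 0.525 as the median of genes, 0.597 without shared barcodes, 0.776 without cluster 11 and 0.556 without cluster 15. The lineage S phase ratio (0.796) was 0.857 without abundant genes, 0.761 with stricter limits, 0.869 thinned, 0.894 as a mean over cells, 0.716 as the median of genes and 0.757 with epithelial-marker cells of cluster 11, which took the G2/M ratio from 0.915 to 0.557. In ameloblast cluster 4 the S phase ratio was 0.688 without the deepest cells and the median G2/M gene was at 0.150. The S phase ratio of cluster 11 (1.35) was 1.25 with TMM, 1.26 with DESeq2, 1.29 without the deepest cells, 1.06 thinned, 1.18 as a mean over cells, 1.43 as the median of genes and 1.29 without shared barcodes. Its G2/M ratio (0.932) was 0.863, 0.865, 0.910 with stricter limits, 1.04 without the deepest cells, 1.07 thinned, 1.05 as a mean over cells, 0.908 as the median of genes and 0.983 without shared barcodes, so its direction turned under 3 settings. Genes past 2-fold in the lineage (1 in each set) became 0 S phase genes with DESeq2 factors or stricter limits and 5 at a fold of 1.5; for G2/M they became 2 with no count minimum, 0 with a minimum of 50 and 3 at a fold of 1.5. The share of ameloblast cluster 4 cells with 2 G2/M genes gave no ratio, since it was 6 of 165 against 0 of 115. No paired analysis was possible because each group has 1 library and no test was made. Depth limits the G2/M sums of single lineage clusters, with 214 and 57 counts in ameloblast cluster 4 and 160 and 61 in ameloblast cluster 1.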

Other observations

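In the erythroid-like all-cell cluster 18 the G2/M sum (138 CPM in Control and 226 CPM in the mutant) was made up almost wholly of Ube2c and Nusap1. Ube2c was at 109.5 and 190.5 CPM (273 and 329 counts; ratio 1.74, 1.48 to 2.05) and Nusap1 at 16.4 and 24.9 CPM (41 and 43 counts), while Mki67 had 9 and 3 counts, Top2a 7 and 3, and Cdk1 0 and 1. The S phase sum there was 20.1 and 18.5 CPM, the lowest of all clusters. A G2/M score in this cluster therefore reads 2 genes.

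In cluster 22 (leading genes Bglap and Dmp1) Ccnb1 had 52 Control and 6 mutant counts (ratio 0.178, 0.0624 to 0.413) whereas Ccnb2 had 23 and 39 counts (ratio 2.61, 1.52 to 4.58), so the B cyclins lay on opposite sides of 1. In the neutrophil-like cluster 28, with 24 Control and 86 mutant cells, Rrm2 was at 279 and 178 CPM and Top2a at 397 and 230 CPM.

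The non-member genes whose levels over 68 points (34 clusters in each library) were most like the summed S phase genes were Tmpo (r = 0.94), Hmgb2 (0.92), Exosc8 (0.92), Hnrnpd (0.91), Nasp (0.91), G3bp1 (0.89), Lig1 (0.89) and Nap1l1 (0.89), among 13397 genes. For the G2/M genes they included 2810417H13Rik (0.89), Cdca8 (0.87), Casc5 (0.87), Cenpa (0.87), Cdca3 (0.87), Racgap1 (0.86) and Cdc20 (0.86). Points share a library and its depth, cells of the lineage can enter under both cluster numberings, and r is a description.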
